A study of Saccharomyces cerevisiae with 22 samples.

Results

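The genes of yeast chromosomes I and VIII are described here in 9 histone point mutants of Saccharomyces cerevisiae, with most attention to the histone H3 mutant hht2-G44A. The members were the gene probes whose systematic name begins with YAL, YAR, YHL or YHR. The 2 probes of the CUP1 repeat on chromosome VIII, CUP1-2 and YHR054C, were left out. This gave 333 of 6388 gene probes, 83 on chromosome I and 250 on chromosome VIII, and YHL049C was the 1 gene with 2 probes. The chromosomes were selected on measured values, the differences of hht2-G44A from its control in cultures a and b, so everything given for hht2-G44A, counts of called probes included, is a description that supports no inference.

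The 11 strains carried alanine in place of a single residue of histone H3, encoded by HHT2 (hht2-Q5A, hht2-R40A, hht2-G44A, hht2-R53A, hht2-N108A and hht2-L109A), or of histone H4, encoded by HHF2 (hhf2-K44A, hhf2-V81A and hhf2-Y98A), or an unmutated histone (hht2-wt and hhf2-wt). All strains and the reference were labelled BY4742, a haploid MATalpha laboratory strain that lacks URA3 and carries CAN1, MET17 and TRP1, and the labels name no treatment. Each strain was grown as 2 cultures, a and b, from separate colonies per the deposited protocol text, and each culture was hybridised on its own array against a shared wild-type reference, which makes 22 arrays. Per the labels the strain carried Cy3 in culture a and Cy5 in culture b, so dye and culture letter cannot be told apart. The sample titles of hht2-Q5A, hht2-R40A, hht2-G44A, hht2-N108A, hhf2-K44A and hhf2-V81A carry the number 2, and those of hht2-R53A, hht2-L109A, hhf2-Y98A and both controls the number 1. The labels do not say what it means, and for those 6 mutants it cannot be told apart from the mutation.

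With the dyes taken as labelled, marker genes went against the strain label. On all 22 arrays URA3 lay 3.66 to 4.56 above the reference on the log2 scale, while CAN1 (-4.18 to -3.21), MET17 (-5.33 to -4.37) and TRP1 (-3.60 to -2.90) lay below it, in both dye orientations. The 4 alpha-specific mating genes lay between -6.08 and -2.29. The 7 a-specific ones averaged 3.16 to 3.86 on the 18 arrays other than those of hhf2-V81A and hhf2-Y98A. By the labelled dyes the strains, controls included, thus did not show the marker levels of BY4742. Each mutant is compared below with the control of its own histone.

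Haploid yeast has 16 nuclear chromosomes. Chromosome I is the smallest of them, and its ends hold FLO genes for cell wall lectins that make cells stick together. Chromosome VIII holds, besides the CUP1 repeat, the mating genes GPA1 and STE12 and several hexose transporter genes. As general background, yeast cells can gain or lose whole chromosomes, and messenger RNA of the genes on an extra copy usually rises along the length of that chromosome. DNA content was not measured here, and its part in the values below was not tested.

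Values are log2 ratios of strain over reference after background correction and loess normalisation, and a difference is the log2 ratio of a mutant minus that of the control of the same histone. Within a culture letter the difference sets 1 array against 1 array. Over both letters it is a log2 fold change with its standard error (SE) from a limma fit of all 22 arrays, and a probe was called at a Benjamini-Hochberg adjusted p under 0.05 over all 6388 probes. Every adjusted p below is from that fit. Of the members, 73 of 83 on chromosome I and 243 of 250 on chromosome VIII were above background in the strain channel on all 22 arrays, and 2 of chromosome I, NUP60 and FLO1, on none. Between 2 and 15 members per array were not above background.

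In hht2-G44A the 2 chromosomes were shifted in different cultures. Chromosome I was high in culture a: its median difference to hht2-wt was 0.42, a 1.33-fold level, with quartiles of 0.17 and 0.63, and 74 of 83 probes lay above 0. In culture b its median was -0.01, and 39 of 83 probes lay above 0. Chromosome VIII was the other way round. Its median was 0.06 in culture a, with 151 of 250 probes above 0, and 0.35 in culture b, a 1.28-fold level, with quartiles of 0.11 and 0.56 and 222 of 250 probes above 0. The other 14 chromosomes, with 4970 probes, had medians between -0.07 and 0.03 in culture a and between -0.06 and 0.06 in culture b.

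Gene by gene, 77 of 83 probes on chromosome I were higher in culture a than in culture b of hht2-G44A, each relative to hht2-wt, with a median gap of 0.44. On chromosome VIII 234 of 250 probes were higher in culture b, and the median of a minus b was -0.26. On the other 14 chromosomes this gap had medians between -0.05 and 0.08, and between 38.7% and 64.3% of probes were higher in culture a. Of the chromosome I probes in culture a, 62 of 83 (74.7%) lay above the upper quartile of the other 14 chromosomes, and 0 lay below their lower quartile. Of the chromosome VIII probes in culture b, 181 of 250 (72.4%) lay above that upper quartile and 5 (2%) below the lower one.

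**Figure D1:**
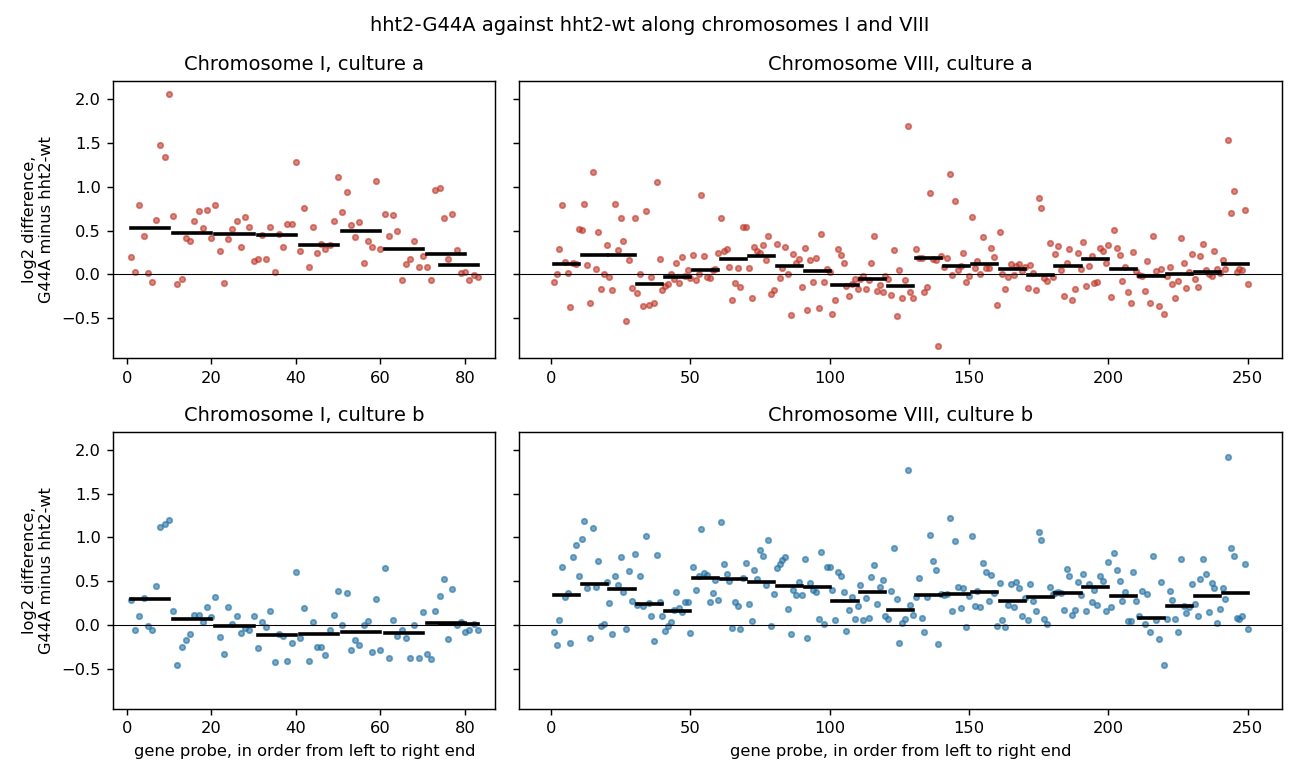
Difference in log2 ratio between hht2-G44A and hht2-wt for each member (points), in gene order from the left to the right end of chromosomes I and VIII, in culture a (top) and culture b (bottom). Black bars are medians of windows of 10 probes, the last window of chromosome I overlapping the one before. On chromosome I the bars lie between 0.10 and 0.53 in culture a, and on chromosome VIII between 0.08 and 0.54 in culture b.

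In the 8 other mutants neither chromosome moved as a block. Their 16 culture medians lay between -0.06 and 0.04 on chromosome I and between -0.03 and 0.04 on chromosome VIII. The gap between cultures a and b had medians between -0.02 and 0.02 on chromosome I and between -0.03 and 0.01 on chromosome VIII over these 8 mutants. Against the shared reference, the 20 arrays other than those of hht2-G44A had medians between -0.11 and 0.01 on chromosome I and between -0.03 and 0.03 on chromosome VIII. The most similar pattern in the series was on chromosome XIV, with 358 probes, where hhf2-K44A had medians of 0.41 in culture a and 0.37 in culture b, and hhf2-V81A 0.72 in culture a and 0.71 in culture b. There both cultures of a strain were alike, whereas in hht2-G44A each of chromosomes I and VIII was shifted mainly in a single culture.

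**Figure D2:**
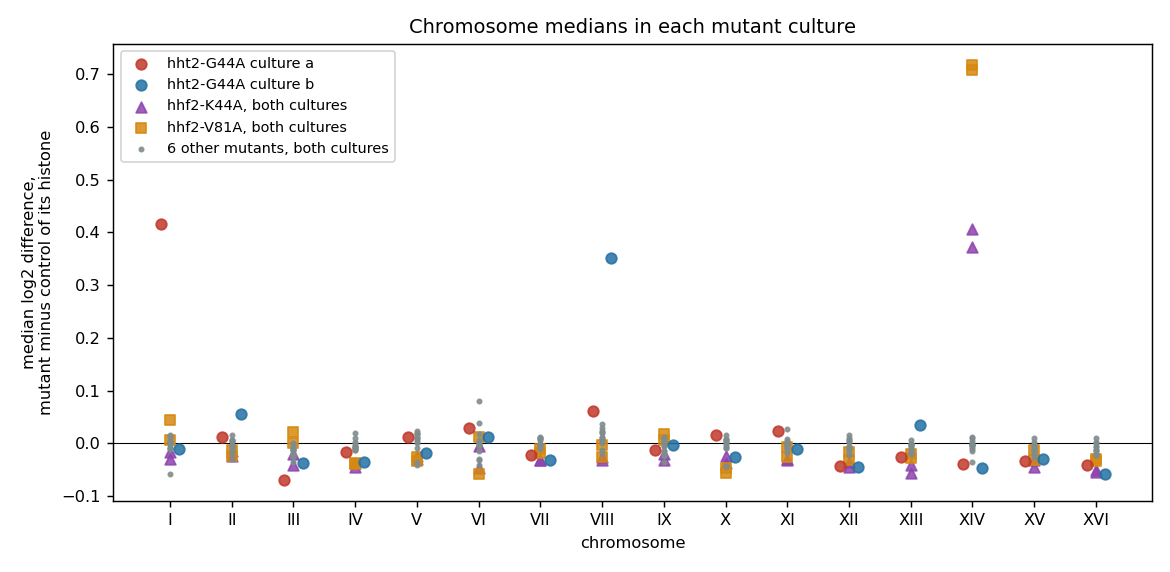
Median difference in log2 ratio between each mutant culture and the control culture of the same histone and letter, for each of the 16 nuclear chromosomes. The hht2-G44A medians stand at 0.42 on chromosome I in culture a and 0.35 on chromosome VIII in culture b, while hhf2-K44A and hhf2-V81A stand out on chromosome XIV in both cultures.

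The shift ran along both chromosomes with weaker stretches near the ends. In 9 windows of 10 probes along chromosome I, the median gap of a minus b was 0.11 to 0.60. It was widest from TPD3 to ERP2, and smallest in the last window at the right end. The 64 left-arm probes of chromosome I had a median gap of 0.50 and the 19 right-arm probes 0.28. In 25 windows of chromosome VIII the median gap was -0.42 to -0.06, below 0 in each. Within 20 kb of an end the gap was 0.03 for the 9 such probes on chromosome I and -0.03 for the 12 on chromosome VIII, against 0.49 for 74 and -0.28 for 238 probes farther in. These end probes include dim ones and gene families with near-identical copies elsewhere, which a probe may also detect, and the part of either in the small gap was not tested.

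The size of the gap also went with signal. With the probes of chromosome I split into 3 groups of about equal size by mean signal, the median gap was 0.19 in the dim, 0.51 in the middle and 0.52 in the bright group. On chromosome VIII it was -0.15, -0.30 and -0.32 in the same order. With the 73 probes of chromosome I that were above background on all 22 arrays, 72 of 73 were higher in culture a, with a median gap of 0.49. With the 243 such probes of chromosome VIII, 227 were higher in culture b, with a median gap of -0.28.

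The 6 probes of chromosome I that were not higher in culture a were PAU8, TDA8, NUP60, YAT1, FLO1 and YAR061W. NUP60, a nuclear pore protein, and FLO1, a flocculation lectin, were not above background on 22 arrays, TDA8 on 21 and YAR061W on 10. PAU8, a seripauperin gene of a large subtelomeric family and the outermost member on the left, had differences of 0.20 in culture a and 0.28 in culture b. At the right end YAR064W, not above background on 19 arrays, had -0.02 and -0.06. On chromosome VIII 16 probes were not higher in culture b, and all were above background on 22 arrays. They were YHL049C (1 of its 2 probes), COS8, ARN2, GUT1, RIM4, AIM17, YHL009W-B, QCR10, GPA1, STE12, HXT4, SSP1, PTH1, SCH9, FLO5 and PHO12. GUT1, glycerol kinase, was at 1.17 in culture a and 1.11 in culture b. SSP1, a meiotic protein of the spore membrane edge, was at -0.45 in both cultures. The mating genes GPA1, the alpha subunit of the pheromone receptor's G protein, and STE12, the transcription factor of the same pathway, were at -0.04 and 0.06 in culture a and at -0.09 and -0.20 in culture b. At the right end of chromosome VIII IMD2, of the IMP dehydrogenase family for guanine nucleotide synthesis, was at -0.11 and -0.04.

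For some genes the 2 cultures of hht2-G44A lay on opposite sides of hht2-wt. With a difference of at least 0.2 on each side, 10 members of chromosome I were higher in culture a and lower in culture b, and 0 the other way. On chromosome VIII 9 members were lower in culture a and higher in culture b, and 0 the other way. Such splits were not counted on the other chromosomes, so whether they were more frequent here than elsewhere was not tested. SNC1, a vesicle SNARE of the secretory pathway on chromosome I, had log2 ratios to the reference of 0.40 and -0.44 in cultures a and b of hht2-G44A, against -0.18 and -0.03 in hht2-wt. The hht2-wt cultures thus lay between the mutant ones, and the fold change over both was 0.08 ± 0.17 (SE, n = 2). EFB1, a subunit of translation elongation factor 1, and CYS3, cystathionine gamma-lyase, were singled out after their values were seen. EFB1 had ratios of 0.36 and -0.25 in hht2-G44A, against -0.07 and 0.12 in hht2-wt. CYS3 had ratios of 0.51 and -0.14 in hht2-G44A, against -0.09 and 0.08 in hht2-wt. The 7 others of chromosome I were MYO4, PMT2, FUN26, CCR4, SYN8, SPO7 and ERP2.

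On chromosome VIII the widest split was at SAM35, a part of the machinery that inserts proteins into the outer mitochondrial membrane, and at GIC1, an effector of the polarity GTPase Cdc42. SAM35 had ratios of -0.45 and 0.28 in hht2-G44A, against 0.02 and -0.02 in hht2-wt, which lay between them. GIC1, chosen after its values were seen, had ratios of -0.90 and -0.14 in hht2-G44A, against -0.45 and -0.55 in hht2-wt. The fold changes over both cultures were -0.09 ± 0.13 for SAM35 and -0.02 ± 0.14 for GIC1 (SE, n = 2). As for SNC1, these SEs rest on the spread over all 22 arrays and do not measure the split. The 7 others were RPS20, OTU2, PRS3, YHR078W, LRP1, RPF1 and SOL3, and among them RPS20 is a ribosomal protein while LRP1 and RPF1 act in ribosomal RNA processing or ribosome assembly. Other genes moved in a single culture only. RPL27A, a ribosomal protein with a near-identical copy on another chromosome, differed from hht2-wt by -0.03 in culture a and 0.57 in culture b. ORC6, of the origin recognition complex for DNA replication, differed by 0.08 in culture a and 0.61 in culture b.

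**Figure D3:**
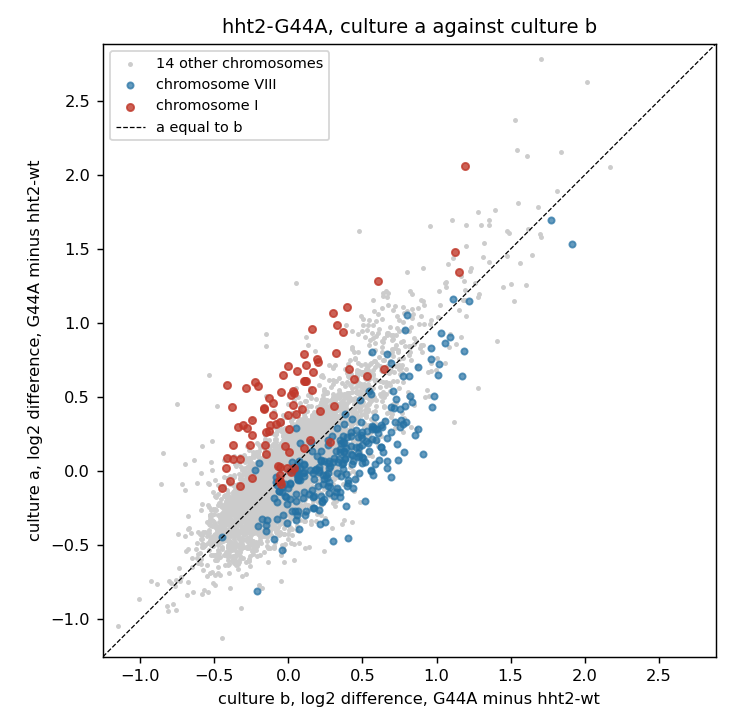
Difference in log2 ratio between hht2-G44A and hht2-wt in culture a (vertical) against culture b (horizontal), 1 point per probe, for chromosome I (red), chromosome VIII (blue) and the 14 other chromosomes (grey). Of chromosome I, 77 of 83 points lie above the dashed line of equal values, and of chromosome VIII 234 of 250 lie below it, while genes high in one culture tend to be high in both.

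Across genes, the differences of cultures a and b of hht2-G44A correlated with Pearson's r = 0.771 and Spearman's rho = 0.657 over the 83 probes of chromosome I. Over the 250 of chromosome VIII r was 0.832 and rho 0.786, and over the 4970 of the other 14 r was 0.852 and rho 0.793. These are correlations across genes of the same arrays, and genes are not independent replicates. On chromosome I the farthest genes from hht2-wt were 3 neighbours near the left end, FLO9, GDH3 and BDH2. BDH2, a dehydrogenase related to butanediol dehydrogenase, had ratios of 1.41 and 0.52 in hht2-G44A, against -0.65 and -0.68 in hht2-wt, a fold change of 1.63 ± 0.21 (SE, n = 2). FLO9, a flocculation lectin, had ratios of 1.52 and 1.07 in hht2-G44A, against 0.04 and -0.05 in hht2-wt. GDH3, a glutamate dehydrogenase, had ratios of 1.30 and 0.92 in hht2-G44A, against -0.04 and -0.24 in hht2-wt. All 3 were higher in both mutant cultures than in either control culture. FRT2, a protein of the endoplasmic reticulum, differed from hht2-wt by 1.28 and 0.60, and PSK1, a kinase that controls sugar use, by 1.11 and 0.40, so culture a was higher by 0.68 for FRT2 and 0.72 for PSK1.

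On chromosome VIII the highest genes were RTC3, a stress-induced protein, and CRG1, a methyltransferase of the cantharidin response. RTC3 had ratios of 2.07 and 1.99 in hht2-G44A, against 0.38 and 0.21 in hht2-wt, a fold change of 1.73 ± 0.22 (SE, n = 2). CRG1 had ratios of 1.38 and 1.79 in hht2-G44A, against -0.16 and -0.12 in hht2-wt. GRE3, aldose reductase, followed at 0.91 and 0.96, against -0.23 and -0.25 in hht2-wt. SOD2, the mitochondrial manganese superoxide dismutase, had ratios of 0.96 and 1.26 in hht2-G44A, against 0.05 and 0.17 in hht2-wt. For these 4 genes, as for GUT1, both mutant cultures lay above both control cultures.

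The lowest members were closer to hht2-wt. On chromosome I they were ECM1, a factor of 60S subunit export, at -0.28 ± 0.10, the purine synthesis enzyme ADE1 at -0.23 ± 0.09, GCV3 of the glycine cleavage system at -0.21 ± 0.10, POP5 of RNase MRP at -0.20 ± 0.14 and the ribosome assembly factor MAK16 at -0.16 ± 0.11 (log2 fold change ± SE, n = 2). ECM1 and ADE1 were called, while GCV3, POP5 and MAK16 were not. All 5 were lower in culture b (-0.45 to -0.33) than in culture a (-0.11 to 0.09). On chromosome VIII the lowest was GEP4, a mitochondrial phosphatase of cardiolipin synthesis, with ratios of -0.99 and -0.43 in hht2-G44A, against -0.17 and -0.21 in hht2-wt. SSP1, YHL041W, OPI1 (the repressor of phospholipid synthesis genes) and the Mediator subunit SRB2 followed at -0.45, -0.29, -0.29 and -0.28. OPI1 was not called in hht2-G44A, while GEP4, SSP1, YHL041W and SRB2 were. GEP4, OPI1 and SRB2 were lower in culture a, by 0.60, 0.49 and 0.36.

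In the fit over both cultures 34 of 83 members of chromosome I (32 higher, 2 lower) and 127 of 250 of chromosome VIII (119 higher, 8 lower) were called in hht2-G44A, beside 46.3% of all probes (23.9% higher, 22.4% lower). The median fold change was 0.18 on chromosome I and 0.20 on chromosome VIII, against -0.03 on the other 14. After the median of each chromosome on each array was taken off, an alternative chosen after seeing the data, 40 members of chromosome I were called, 21 higher and 19 lower, and 122 of chromosome VIII, 66 higher and 56 lower, beside 46% of all probes. This scaling moves all members of a chromosome alike, so the more even split follows from it. Of the members called before it, 23 of 34 on chromosome I and 74 of 127 on chromosome VIII stayed called in the same direction. The column of hht2-G44A in the authors' deposited table names no control, but its log2 fold changes equal, with a largest gap of 0 to 4 decimals over 6182 probes, the mean of hht2-G44A minus that of hhf2-wt in the deposited value table. This holds with the hhf2-wt culture a values turned, as they were opposite in sign to the scanner ratios. In the hht2-G44A column of the authors' deposited table the median over both cultures was 0.17 on chromosome I and 0.19 on chromosome VIII.

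Sorted by role, the calls of hht2-G44A are given beside the 45.3% of all members and 23.9% of all probes called higher, and the 3% of members and 22.4% of all probes called lower. Each group mixes both chromosomes, so its medians by culture depend on how many genes it has on each. The groups also overlap, and a shared gene counts in each. GRE3, OYE2 and HXT5 are in both the stress-induced and the carbon group, and SOD2 and AIM17 in both the stress-induced and the mitochondrial group. GDH3 is in both the stress-induced and the amino acid group. All 10 stress-induced genes were called higher, with a median fold change of 0.99, 2 on chromosome I and 8 on chromosome VIII, and their medians were 0.92 in culture a and 1.06 in culture b. They include SSA1, an Hsp70 chaperone, at 0.69 in culture a and 0.65 in culture b, and HXT5, a hexose transporter of slow growth, at 0.93 and 1.03. Of 12 genes of carbon metabolism 7 were higher and 0 lower, of 13 mitochondrial genes 8 and 0, of 9 subtelomeric genes and transporters 6 and 0, and of 11 cell cycle genes 6 and 0. CDC15, a kinase of mitotic exit, was highest of the cell cycle genes at 0.66. Of 13 meiotic genes 6 were higher and 1 lower, with SPO11, the nuclease that starts recombination, at 0.71. Of 18 genes for chromatin, transcription and replication 8 were higher and 1 lower, with the replication helicase DNA2 at 0.66. Of 9 genes for amino acids and purines 4 were higher and 1 lower, and of 7 for sterols and lipids 2 and 0.

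Of 19 ribosome biogenesis genes 1 was higher (RRP3, 0.25) and 1 lower (ECM1), 2 lie on chromosome I and 17 on chromosome VIII, and their median was -0.17 in culture a and 0.10 in culture b. Of 11 ribosomal protein and translation genes 2 were higher (SSZ1, a ribosome-bound Hsp70, 0.39, and RPL27A, 0.27) and 1 lower (RPL8A, -0.23). Of the 4 mating and polarity genes CDC24, the activator of Cdc42 on chromosome I, was higher at 0.36, while GPA1, STE12 and STE20 were not called. The median fold change of all probes was -0.01. Single values of a gene in these groups, such as 0.36 for CDC24, are fold changes over both cultures, whose shifts differed on these chromosomes. These groups were read on the contrast that chose the chromosomes, so the counts are a description.

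Near-identical genes on the 2 chromosomes could be compared for few pairs. FLO5 of chromosome VIII differed from hht2-wt by 0.96 in culture a and 0.79 in culture b, while FLO1 of chromosome I was not above background on any array. YAR061W and YHR212W-A were both near background, not above it on 10 and 13 arrays, and their fold changes were 0.01 and 0.05. PHO12, an acid phosphatase whose partner has no member probe, was at 0.73 and 0.70 in hht2-G44A. YHR214W was at 0.07 and 0.07.

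In the other mutants the members carried no block shift, and single genes could be tested. Counts by role group are a description here too, as the gene lists were chosen with earlier results of these data known. Of the 83 members of chromosome I, 27 were called in at least 1 of the 8 other mutants, and of the 250 of chromosome VIII, 142. These are 32.5% and 56.8%, beside 70.8% of all 6388 probes. Without the hht2-G44A arrays in the fit, an alternative chosen after seeing the data, the shares were 71.1% and 75.2%, beside 75.1% of all probes. The members called in the most mutants were ARN2, a siderophore-iron transporter, and VMR1, a vacuolar ABC transporter, both higher in 5 of the 8 other mutants and in hht2-G44A. Such counts are not over independent comparisons, since all H3 mutants share the hht2-wt arrays and all H4 mutants the hhf2-wt arrays. ARN2 was higher in hht2-R40A, hht2-N108A, hhf2-K44A, hhf2-V81A and hhf2-Y98A, and lower in hht2-Q5A. VMR1 was lower in hhf2-V81A. On chromosome I GDH3 was higher in 4 of the 8 other mutants and lower in hht2-Q5A. Its neighbour FLO9 was higher in 3 of them and lower in hhf2-Y98A, YAL064W was higher in 3 and BDH2 in 2, as the plot of fold changes by gene and mutant shows.

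**Figure D4:**
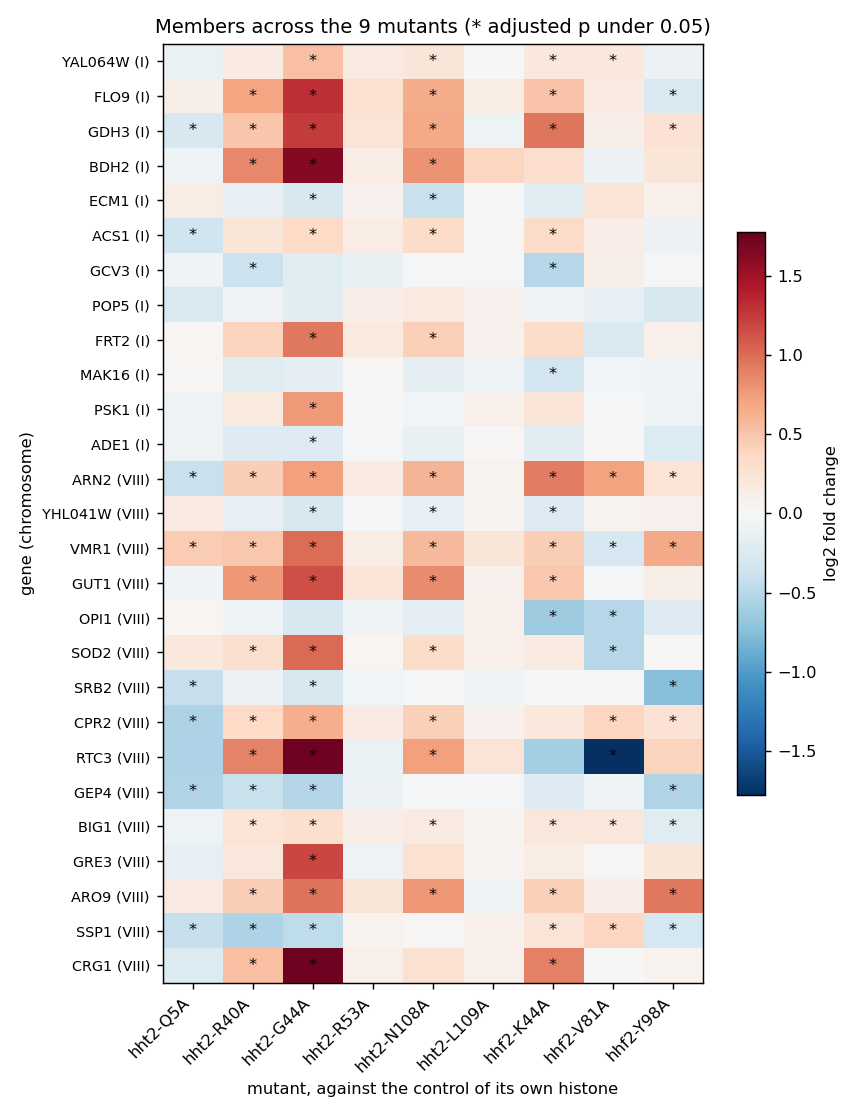
Log2 fold change of 27 members (rows, in gene order, chromosome in brackets) in the 9 mutants against the control of their own histone, from the fit of all 22 arrays. Stars mark an adjusted p under 0.05, and hht2-R53A and hht2-L109A have none, whereas ARN2 and VMR1 have a star in 7 mutants each.

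In hhf2-Y98A the lowest member was GPA1. Its log2 ratios were -2.56 and -2.36 in hhf2-Y98A, against 0.16 and 0.23 in hhf2-wt, and it fell by 2.65 ± 0.12 (adjusted p = 1.18e-09). STE12 fell too, and its differences to hhf2-wt were -1.15 in culture a and -0.94 in culture b (-1.05 ± 0.08, adjusted p = 2.23e-07). Both mutant cultures of each gene lay below both control cultures. The other genes of the mating group, STE20 and CDC24, had fold changes of -0.09 and -0.24 and were not called. Outside the members, the mating-type markers moved with GPA1 and STE12. All 7 a-specific genes were lower in hhf2-Y98A, by a median of -3.49, and averaged 0.10 and 0.19 above the reference, against 3.49 and 3.62 in hhf2-wt. The 4 alpha-specific genes averaged -4.63 and -4.35 in hhf2-Y98A, against -4.57 and -4.26 in hhf2-wt. The part of this in the values of GPA1 and STE12 was not tested. SAE3, which assists the meiotic recombinase Dmc1, rose, with differences to hhf2-wt of 1.99 in culture a and 1.57 in culture b (1.78 ± 0.08, adjusted p = 1.44e-09). COS8, of a subtelomeric membrane protein family, rose by 1.14 ± 0.11 (adjusted p = 2.62e-06), and the aromatic aminotransferase ARO9 by 0.94 ± 0.07 (adjusted p = 1.41e-07). GPI16, of the GPI anchor transamidase, fell by 0.81 ± 0.09 (adjusted p = 1.85e-05). On chromosome I the lowest was YAR009C, a Ty1 retrotransposon frame, at -0.79 ± 0.17 (adjusted p = 0.0027), and its probe may detect Ty1 copies elsewhere. In all, 10 of 83 members of chromosome I (3 higher, 7 lower) and 65 of 250 of chromosome VIII (30 higher, 35 lower) were called, beside 30.6% of all probes (13.9% higher, 16.7% lower).

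In hhf2-V81A GPA1 had ratios of -1.57 and -1.20, against 0.16 and 0.23 in hhf2-wt (-1.58 ± 0.12, adjusted p = 1.03e-07), and STE12 fell by 0.60 ± 0.08 (adjusted p = 3.03e-05). Here 6 of the 7 a-specific genes were lower, by a median of -1.11 over the 7, and they averaged 2.29 and 2.64, against 3.49 and 3.62 in hhf2-wt. In the 7 other mutants, hht2-G44A among them, the median over these genes lay between -0.20 and 0.09. RTC3, the member highest in hht2-G44A, was the lowest in hhf2-V81A, with ratios of -1.55 and -1.42, against 0.18 and 0.40 in hhf2-wt (-1.78 ± 0.22, adjusted p = 1.61e-05). SOD2 fell by 0.51 as well (adjusted p = 0.000234). WSC4, a sensor-like protein of the cell wall, fell by 0.83 ± 0.08 (adjusted p = 2.04e-06). Among the highest were COS8 (1.02 ± 0.11, adjusted p = 3.61e-06), ARG4 of arginine synthesis (0.98 ± 0.10, adjusted p = 2.64e-06) and GND1 of the pentose phosphate pathway (0.87 ± 0.09, adjusted p = 2.8e-06). The differences of ARG4 to hhf2-wt were 0.98 in both cultures. Called were 4 of 83 members of chromosome I (2 higher, 2 lower) and 71 of 250 of chromosome VIII (27 higher, 44 lower), beside 33.9% of all probes (16.8% higher, 17.1% lower). That share includes the probes of chromosome XIV, which lay higher as a block here. Relative to the median of each chromosome, added after seeing the data, it was 30.9%, with 13 and 83 members called. The lowest on chromosome I was YAR009C at -0.91.

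In hhf2-K44A ARN2 had ratios of 0.18 and 0.24, against -0.76 and -0.65 in hhf2-wt (0.92 ± 0.08, adjusted p = 1.74e-06). GDH3 had ratios of 0.81 and 0.85, against -0.12 and -0.11 in hhf2-wt (0.95 ± 0.08, adjusted p = 2.28e-06). CRG1 rose by 0.89 ± 0.10 and SSA1 by 0.55 ± 0.07. HXT1, the low-affinity glucose transporter, had ratios of -1.08 and -1.16, against -0.38 and -0.30 in hhf2-wt, and fell by 0.78 ± 0.10 (adjusted p = 4.98e-05). OPI1 fell by 0.63 ± 0.13 (adjusted p = 0.00192). Of the 19 ribosome biogenesis genes 6 were lower and 0 higher, with NMD3, the export adaptor of the large subunit, at -0.36, and MAK16 at -0.33. Of the 10 stress-induced genes 5 were higher and 0 lower. The same list gave 6 higher and 0 lower in hht2-N108A, 5 and 0 in hht2-R40A, and 3 and 0 in hhf2-Y98A. The shares of all probes called higher and lower were 16.6% and 12%, 9.8% and 4.95%, and 13.9% and 16.7% in the same order. The list gave 0 higher and 1 lower in hht2-Q5A, 0 and 2 in hhf2-V81A, and none in hht2-R53A and hht2-L109A. All probes gave 7.7% higher and 11.2% lower in hht2-Q5A, and 16.8% and 17.1% in hhf2-V81A. Called were 11 of 83 members of chromosome I (6 higher, 5 lower) and 56 of 250 of chromosome VIII (31 higher, 25 lower), beside 29.5% of all probes (15.9% higher, 13.6% lower). Chromosome XIV, higher as a block in this mutant too, is part of that share. Relative to the median of each chromosome the share was 25.3%, with 15 and 73 members called.

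Among the H3 mutants, hht2-N108A and hht2-R40A are given side by side, and both were set against the same 2 hht2-wt arrays. GUT1 had ratios of 0.89 and 0.74 in hht2-N108A and 0.89 and 0.59 in hht2-R40A, against -0.03 and -0.02 in hht2-wt. FLO9 had ratios of 0.75 and 0.56 in hht2-N108A and 0.74 and 0.66 in hht2-R40A, against 0.04 and -0.05 in hht2-wt. The fold changes of GUT1 were 0.84 ± 0.09 and 0.77 ± 0.09, and those of FLO9 0.66 ± 0.09 and 0.71 ± 0.09. In hht2-N108A ARO9 rose by 0.77 ± 0.07 (adjusted p = 3.43e-06) and PHO12 by 0.73 ± 0.09 (adjusted p = 5.12e-05), while IPI1, of a pre-60S maturation complex, fell by 0.41 ± 0.06 (adjusted p = 0.000276). In hht2-R40A SSP1 fell by 0.55 ± 0.08 (adjusted p = 0.000254). PAU8 was at 0.86 ± 0.24 there (adjusted p = 0.027), from unlike cultures, with ratios of 1.56 and 0.40 in hht2-R40A, against 0.08 and 0.17 in hht2-wt. Called in hht2-N108A were 12 of 83 (11 higher, 1 lower) and 51 of 250 (40 higher, 11 lower), beside 28.6% of all probes (16.6% higher, 12% lower). In hht2-R40A 7 of 83 (5 higher, 2 lower) and 30 of 250 (25 higher, 5 lower) were called, beside 14.7% of all probes (9.8% higher, 4.95% lower).

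In hht2-Q5A BDH1, butanediol dehydrogenase, had ratios of -0.87 and -0.58, against 0.09 and -0.02 in hht2-wt (-0.76 ± 0.17, adjusted p = 0.00737). PUT2, of proline breakdown, fell by 0.63 ± 0.11 (adjusted p = 0.000977), and BAT1, a branched-chain aminotransferase, rose by 0.60 ± 0.08 (adjusted p = 0.000237). Its ratios were 0.94 and 0.88 in hht2-Q5A, against 0.27 and 0.36 in hht2-wt. Of 12 genes of carbon metabolism 4 were lower and 0 higher, with HXT1 at -0.53. Called were 5 of 83 members of chromosome I (1 higher, 4 lower) and 44 of 250 of chromosome VIII (15 higher, 29 lower), beside 18.9% of all probes (7.7% higher, 11.2% lower). In hht2-R53A limma called 0 of 333 members, beside 0.673% of all probes (0.579% higher, 0.0939% lower). Its unadjusted p was under 0.05 for 20 members (6.01%), beside 8.63% of the probes of the other 14 chromosomes. In hht2-L109A limma called 0 of 333, beside 0.0626% of all probes. There 8 members (2.4%) had an unadjusted p under 0.05, beside 4.45% of the probes of the other 14 chromosomes.

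Because all strains shared 1 estimate of the spread, the split between the hht2-G44A cultures entered every comparison of these genes. The median residual SD over the 22 arrays was 0.120 on chromosome I and 0.091 on chromosome VIII, against 0.069 on the other 14 chromosomes. When both hht2-G44A cultures were left out of the fit, an alternative chosen after seeing the data, chromosome I had 21 called members in hhf2-V81A instead of 4, and 24 in hhf2-Y98A instead of 10. In hhf2-K44A it had 20 instead of 11, in hht2-N108A 24 instead of 12, in hht2-R40A 19 instead of 7, and in hht2-Q5A 16 instead of 5. On chromosome VIII the counts were 98 instead of 71 in hhf2-V81A, 91 instead of 65 in hhf2-Y98A, 86 instead of 56 in hhf2-K44A, 82 instead of 51 in hht2-N108A, 46 instead of 30 in hht2-R40A and 72 instead of 44 in hht2-Q5A. In hht2-R53A it was 5 instead of 0. Every member called in these 6 mutants with all arrays was called in the same direction without them. Over all probes the share called without the hht2-G44A arrays was 36.9% in hhf2-V81A, 33.8% in hhf2-Y98A, 32.5% in hhf2-K44A, 32% in hht2-N108A, 17.5% in hht2-R40A, 21.8% in hht2-Q5A and 1.28% in hht2-R53A.

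**Figure D5:**
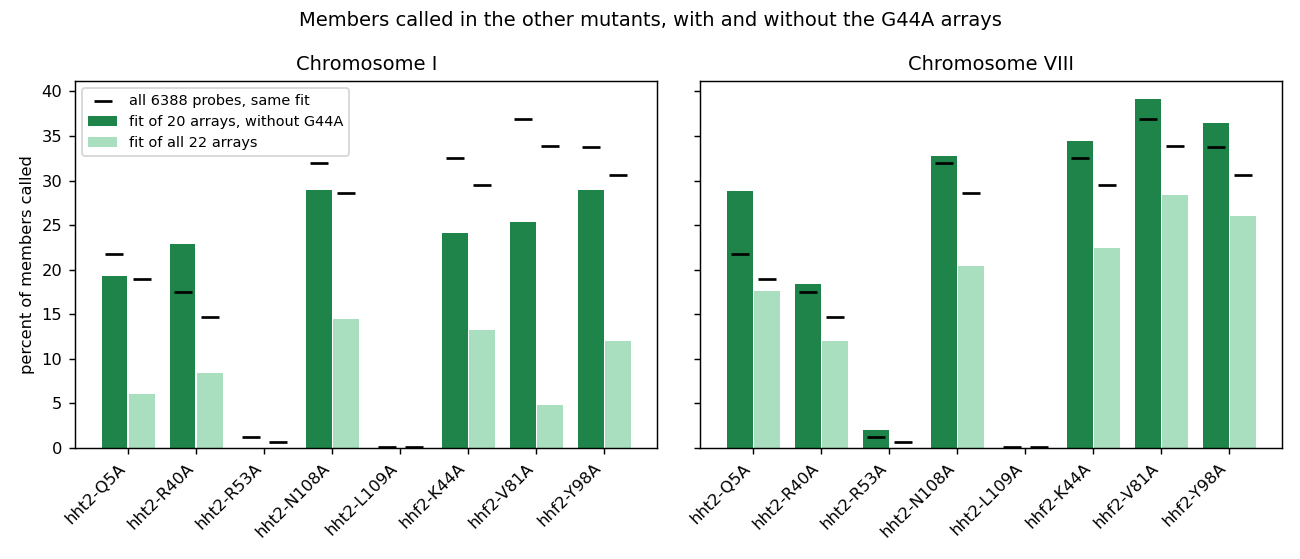
Percent of the members of chromosome I (left) and VIII (right) called in each of the 8 other mutants, without (dark bars) and with (light bars) the hht2-G44A arrays in the fit, and the percent of all 6388 probes in the same fit (black marks). On chromosome I the dark bars of hhf2-V81A stand for 21 of 83 members and the light ones for 4 of 83.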

How the data were processed

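Scanner files of 22 two-colour spotted arrays were used. Per the file headers, these give a mean intensity for every spot and a separate one for the local background. Background was corrected here by normexp (offset 50), ratios were normalised within arrays by global loess (span 0.3, control spots at weight 0), turned to strain over reference by the labelled dyes, and duplicate spots averaged. The deposited value table holds log2 ratios, made per the deposited protocol text by print-tip loess with span 0.4 without background subtraction and a dye correction. It was an alternative, and 3 of its columns were opposite in sign to the scanner ratios (correlation -0.958 to -0.921) and were turned. The authors also deposited p-values, corrected for multiple testing, beside log2 fold changes. The series text gives the dyes in the opposite order. Turned by the labels, URA3, which BY4742 lacks, was above the reference on all 22 arrays. CAN1, MET17 and TRP1, which it carries, were below it, so the channel labelled as reference showed the levels of BY4742. Strains and reference are both labelled BY4742, so these markers cannot decide between the dye orders. With the opposite order the sign of every log2 ratio given here would turn. The median signal of an array ran from 295 to 801 for the strain and from 284 to 704 for the reference. The small number of arrays limits the precision, whose median SE was 0.068.

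The limma fit (3.58.1, R 4.3.3) held 11 strain means and a culture and dye term, which is also the replicate block. The correlation across probes of culture a minus culture b was over 0.1 in 9 of 9 pairs of a mutant and its control (lowest 0.126). A common spread for all strains was assumed. The fit left 10 residual degrees of freedom and was tested on simulated data. Those data had equal spread in all strains, so the test could not show what a split between 2 cultures does. Names and gene order came from the probe table and the R64 gene table, and 3 members were matched by synonym. The files name no build, so no positions are given, and no sequences were used here. Of the protein-coding genes in that table, 82 of 94 on chromosome I and 249 of 293 on chromosome VIII had a probe.

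The members, gene lists and tests were chosen with earlier results of these data known. Genes were named by rule: the 5 highest and 5 lowest by fold change and 3 by culture in hht2-G44A, the 3 highest and 3 lowest called in each other mutant, called list members, members called in the most mutants, listed pairs and the outermost members.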

Additional observations from a re-analysis of the deposited data

How the results depend on the processing

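Over the 10 settings tried for the hht2-G44A medians, chromosome I gave 0.36 to 0.43 in culture a and -0.01 to 0.01 in culture b, and chromosome VIII 0.03 to 0.07 in culture a and 0.32 to 0.37 in culture b. The counts of called members moved more. Without the replicate block the counts were 31 in hht2-Q5A (49 with it), 24 in hht2-R40A (37 with it) and 43 in hhf2-K44A (67 with it), beside 10.6%, 8.28% and 18.9% of all probes (18.9%, 14.7% and 29.5% with it), and no other count moved by over 1.5 times. With arrays centred on the median without loess, hht2-Q5A gave 31 and hht2-R40A 24, beside 11.2% and 7.58% of all probes. At an adjusted p under 0.01 the counts were 21 in hht2-Q5A, 21 in hht2-R40A, 35 in hht2-N108A, 35 in hhf2-K44A, 48 in hhf2-V81A and 40 in hhf2-Y98A, which follows from the stricter threshold. The shares of all probes were then 9.13%, 7.39%, 15%, 17.5%, 22.8% and 18.4% in the same order. Without both hht2-G44A cultures, added after seeing the data, they were 88 in hht2-Q5A, 65 in hht2-R40A, 5 in hht2-R53A, 106 in hht2-N108A, 106 in hhf2-K44A, 119 in hhf2-V81A and 115 in hhf2-Y98A, which are 1.5% to 35.7% of the members, beside 1.28% to 36.9% of all probes. Relative to the median of each chromosome, also added after seeing the data, they were 75 in hht2-Q5A, 2 in hht2-R53A and 99 in hht2-N108A, beside 19.2%, 0.83% and 29% of all probes. In hht2-R53A, with 0 called, the count was 1 with no background subtraction, 2 with print-tip loess, 2 with loess fitted without these chromosomes, 3 with the authors' value table, 5 against the mean of both controls, 3 against the control of the other histone and 28 when only the 4 arrays compared were fitted. The share of all probes called was 0.736% to 2.14% in the first 6 of these and 8.64% in the last. Except for the stricter threshold, the cause was not tested.

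With each of the 22 cultures left out in turn, where a strain with 1 culture is assumed to vary like the others, the counts were 18 to 88 in hht2-Q5A, 17 to 65 in hht2-R40A, 112 to 196 in hht2-G44A, 0 to 5 in hht2-R53A, 34 to 106 in hht2-N108A, 0 to 2 in hht2-L109A, 37 to 106 in hhf2-K44A, 43 to 119 in hhf2-V81A and 42 to 115 in hhf2-Y98A. The share of all probes ran, in the same order, over 8.58% to 21.8%, 6.64% to 17.5%, 34.1% to 47.4%, 0.157% to 1.28%, 14.5% to 32%, 0.0626% to 0.125%, 17.8% to 32.5%, 22% to 36.9% and 19.6% to 33.8%. For all but hht2-R53A and hht2-L109A the highest came without hht2-G44A replicate a. The lowest came without hht2-wt replicate a in hht2-Q5A and hht2-N108A, without hht2-wt replicate b in hht2-G44A, and without a culture of the mutant itself in hht2-R40A, hhf2-K44A, hhf2-V81A and hhf2-Y98A (replicate b in hhf2-K44A, a in the others). SNC1 in hht2-G44A, named for its split, was -0.33 without replicate a and 0.50 without replicate b, since 1 culture then stands alone, and these values carry no test. Of 226 named values of 113 genes, 118 stayed on the same side of the threshold under every alternative.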
